A study of Mus musculus with 29 samples.

Results

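The wild-type mouse ovary was followed from embryonic day 13.5 (E13.5) to embryonic day 18.5 (E18.5), across all genes, with bulk RNA sequencing. The members were chosen by their labels, with earlier results of these data known. They were 4 libraries of E13.5 ovary and 4 of E18.5 ovary, 8 of the 29 libraries in all, each of genotype Cdkn1b +/+. The other libraries came from wild-type ovaries at postnatal day 8 (PND8) and 12 weeks and from mice that lack Cdkn1b (genotype Cdkn1b -/-, labelled p27null), the gene for the cell cycle inhibitor p27. All ovaries were dissociated to cells with the protease papain before RNA extraction, the mouse strain and the number of embryos behind a library were not given in the sources used here, and the replicates may be technical or biological, so p-values measure only the spread between these libraries.

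The fetal ovary holds germ cells that arrive as primordial germ cells, proliferate, and then enter the prophase of meiosis before birth. On the way they switch off the pluripotency factors that they share with early embryonic cells, and build the synaptonemal complex, a protein ladder that joins homologous chromosomes while programmed DNA breaks are repaired. Around them, supporting cells become pregranulosa cells, the stroma and vessels mature, and blood-derived cells move in, among them mast cells, which store proteases in granules. A bulk library averages all of these, so that fewer cells of a type and less RNA per cell cannot be told apart.

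The 4 E13.5 libraries held 18.2 ± 3.43 M counts (M for 1000000; SD, n = 4) and the 4 E18.5 libraries 18.7 ± 1.55 M (SD, n = 4), so that 3 counts over the 4 libraries of an age, the limit used below where a gene had no count, corresponded to 0.0426 counts per 1000000 counts (CPM) at E13.5 and 0.0382 CPM at E18.5. The libraries were not alike within an age. Globin genes took 19.0% of the counts in E13.5 replicate 3 and 0.18% to 3.59% in the other 7 libraries. E13.5 replicates 1 and 3 carried skeletal muscle RNA (the muscle libraries), E13.5 replicate 1 carried neuroendocrine RNA, and E18.5 replicates 1 and 3 carried more red cell RNA than replicates 2 and 4 (with E13.5 replicate 3, the red cell libraries), as described with the genes concerned. Mitochondrial genes took 0.654% to 1.56% of the counts at E13.5 and 1.67% to 3.77% at E18.5. Xist, the RNA that silences an X chromosome in females, stood at 18.4, 10.0, 188 and 14.7 CPM at E13.5 and 34.5 to 56.8 CPM at E18.5 (log2 fold change -0.20, adjusted p = 0.895; 1.80 and 0.000655 without E13.5 replicate 3). No Y-linked gene of the list (Ddx3y, Eif2s3y, Kdm5d, Uty) exceeded 0.0839 CPM in any of the 8 libraries, and Ddx4, a marker of germ cells, and Foxl2, a marker of ovarian supporting cells, were present in all of them.

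Of 16603 genes that passed the filter on low counts, 5651 (34.0%) differed between the ages at an adjusted p under 0.05 (edgeR quasi-likelihood test, Benjamini-Hochberg adjustment over all genes tested, the source of all adjusted p given). Of these, 2748 genes (16.6% of those tested) were higher and 2903 (17.5%) lower at E18.5, and 3006 had a log2 fold change of 1 or more in size, 1634 of them positive. The median log2 fold change over all genes tested was 0.01. The values of the ages did not overlap for 5759 genes (34.7% of those tested), the background where single genes are said not to overlap. Genes are described below by lists of known function or cell type, and the shares 16.6% and 17.5% are the background against which each list's counts stand. A gene passes the filter if at least 4 libraries reach about 0.545 CPM, which those of 1 age can do alone, and 489 of the called genes lay under that level in every library of the age where they were lower. Their direction was fixed by how they passed. The lists were also drawn up with earlier results of these data known, so the counts and medians by list are descriptions. By fitted log2 fold change mast cell proteases led the upward changes, and embryonic globins, skeletal muscle genes and the germ cell regulator Prdm14 the downward changes.

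**Figure D1:**
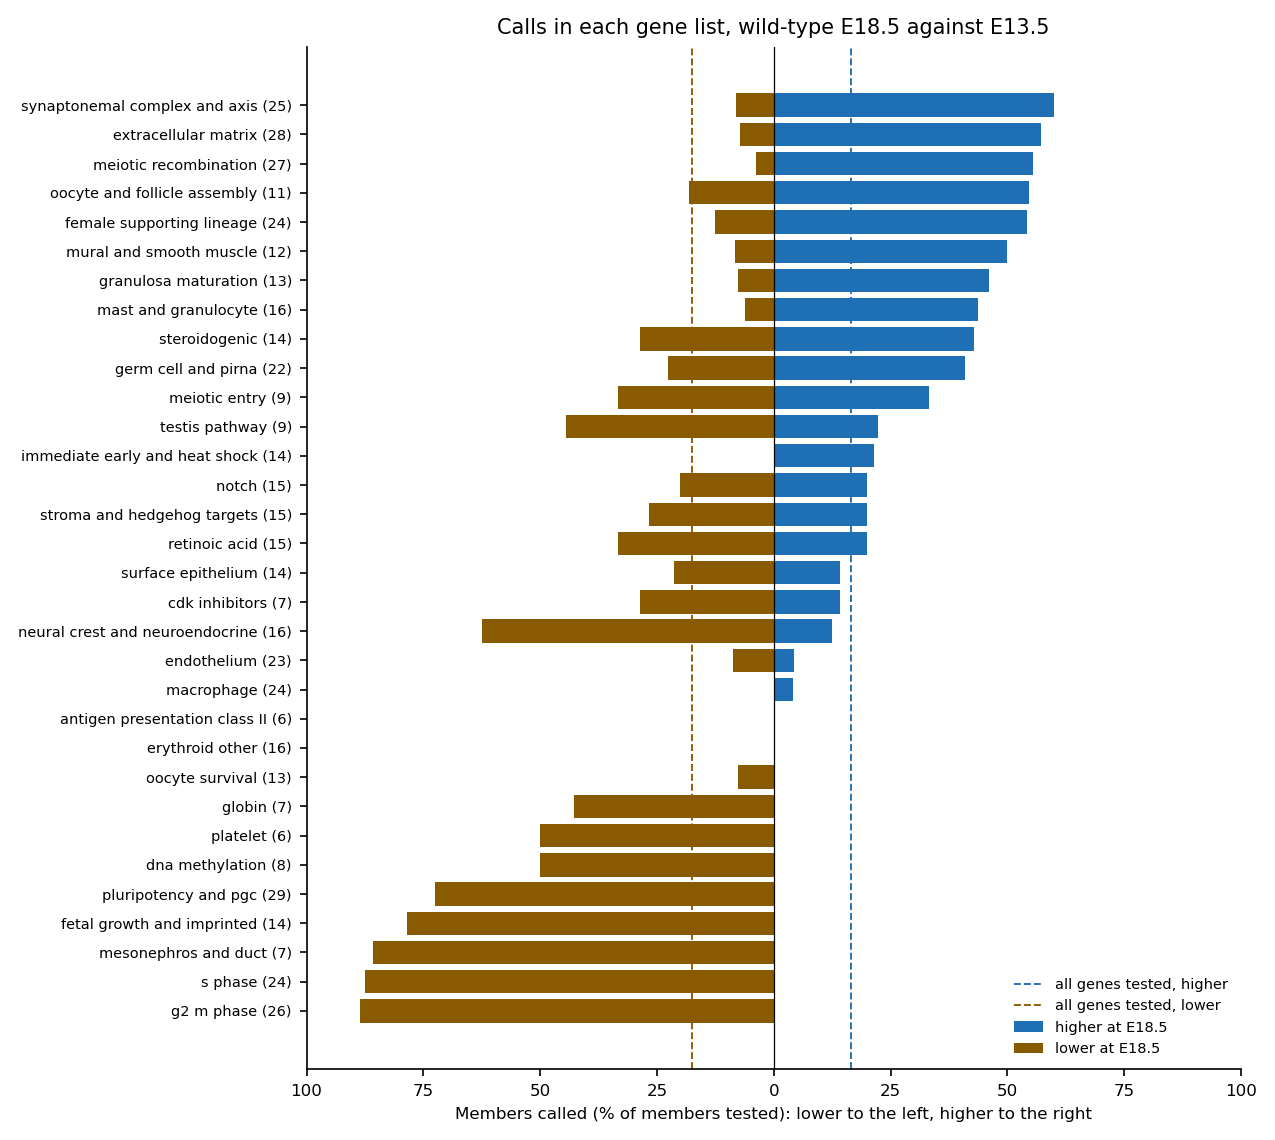
Percent of the tested genes of each list that were called higher (right) or lower (left) at E18.5 than at E13.5 in wild-type ovary (edgeR, adjusted p under 0.05), with the number tested in brackets and dashed lines for all genes tested. The called genes of the pluripotency, S phase and G2/M lists were all lower, and most called genes of the synaptonemal complex and recombination lists were higher.

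Of 29 pluripotency and primordial germ cell genes tested, 21 fell and none rose, with a median log2 fold change of -2.75. Of the 21, 6 lay under the filter's level in every E18.5 library, Prdm14 and Sox2 among them. Pou5f1, which encodes the pluripotency factor OCT4 (chromosome 17, 35506018 to 35510772, GRCm38), stood at 75.6, 52.0, 96.5 and 47.1 CPM in E13.5 replicates 1 to 4 and at 0.497, 1.2, 0.154 and 1.41 CPM in E18.5 replicates 1 to 4. The ages did not overlap, and the lowest E13.5 library lay far above the highest E18.5 library (log2 fold change -6.34 ± 0.51, SE; adjusted p = 3.1e-05). Its partner factors moved with it: Nanog fell from 13.7 to 19.9 CPM at E13.5 to 0.382 to 0.925 CPM at E18.5, and Sox2 from 2.29 to 5.20 CPM to 0 in E18.5 replicates 1 to 3 and 0.0441 CPM in replicate 4.

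Prdm14, a transcriptional regulator needed for germ cell specification, had 8.68, 4.97, 10.6 and 7.86 CPM at E13.5 and no count in any E18.5 library, at least 210-fold lower against the limit of 3 counts over the 4 libraries (adjusted p = 6.1e-05). Utf1, a chromatin factor of pluripotent cells, went from 64.5 to 115 CPM to 0.164 to 0.441 CPM (log2 fold change -8.02 ± 0.32, SE; adjusted p = 7.58e-07). Tfap2c, Sall4, Lin28a, Dppa2 and Dppa5a, all established markers of primordial germ cells, fell by 7.75, 7.10, 5.75, 5.70 and 5.48 on the log2 scale. Zfp42 fell by 1.26 (adjusted p = 0.00699; 0.0579 without the muscle libraries and 0.0717 without the red cell libraries) and was still at 2.77 to 5.42 CPM at E18.5.

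Dppa3, a maternal factor that oocytes also express, differed widely between the E18.5 libraries. It stood at 199, 181, 264 and 192 CPM at E13.5 and at 14.3, 165, 14.0 and 41.5 CPM at E18.5. The ages did not overlap, but E18.5 replicate 2 was close to the E13.5 level, and the adjusted p was 0.112; without that library the log2 fold change was -3.19 (adjusted p = 0.00112). Ifitm3, a membrane protein of primordial germ cells and many other cells, had 63.9 to 77.3 CPM at E13.5 and 45.0 to 110 CPM at E18.5 (adjusted p = 0.816), again with replicate 2 the highest; without it the log2 fold change was -0.50 (adjusted p = 0.0111).

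Some of the largest falls lay outside the list. Cdx2, a caudal homeobox factor, had 8.14 to 13.0 CPM in the 4 E13.5 libraries and none at E18.5, at least 269-fold lower against the same limit, and Khdc1a was at least 165-fold lower. Calcoco2, an autophagy receptor gene, was at 16.3 to 29.4 CPM at E13.5, and at E18.5 had counts in replicate 4 alone, at 0.0441 CPM.

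DNA methylation genes were lower or not called. The maintenance methyltransferase Dnmt1 fell by 1.3 and its partner Uhrf1 by 1.27 on the log2 scale (adjusted p = 0.000235 and 0.000282), 4 of 8 genes in the list fell, and none rose. Tet1, which oxidises methylated cytosine, was lower by 0.62 (adjusted p = 0.0133), a call lost at -0.45 without the muscle libraries and at -0.35 without the red cell libraries (adjusted p = 0.123 and 0.197). The de novo methyltransferase Dnmt3a stood at 247 to 296 CPM and then 263 to 347 CPM (adjusted p = 0.213), Dnmt3b at 8.94 to 13.9 and then 7.96 to 10.5 CPM (adjusted p = 0.209), and Dnmt3l reached at most 0.154 CPM in any library, too low to be tested.

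Of 9 meiotic entry genes tested 3 rose and 3 fell, 1 of the latter to under the filter's level in every E18.5 library. Stra8, the retinoic acid target that licenses meiotic entry, had 7.80, 6.53, 5.54 and 11.6 CPM at E13.5 and 0, 0.382, 0.257 and 0.132 CPM at E18.5. It fell by 5.31 ± 0.62 (SE) on the log2 scale, with no overlap between ages (adjusted p = 0.000195). Zglp1 and Msx2, both upstream of meiotic entry in the fetal ovary, fell by 1.64 and 1.91 (adjusted p = 0.0093 and 0.00144). In the other direction, Meioc, which keeps germ cells in meiotic prophase, rose from 7.21 to 14.2 CPM to 16.7 to 31.8 CPM (log2 fold change 1.2 ± 0.28, SE; adjusted p = 0.00801; 0.0554 without the muscle libraries). Gm4969, the gene also named Meiosin, rose by 1.41 (adjusted p = 0.00429). The meiotic cohesin Rec8 was higher by 0.62 (adjusted p = 0.0213), a call that was lost without E13.5 replicate 1, E18.5 replicate 1 or E18.5 replicate 3 (adjusted p = 0.0559, 0.0505 and 0.0667).

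The promoters are shown for the chromosome axis and synaptonemal complex genes Sycp3, Sycp1, Hormad1 and Tex12, which all rose, as the stretch before the RefSeq start site (GRCm38.p6, each on its gene's strand, 5′ to 3′). Capitals mark CACGTG, a palindromic E-box, searched as these 6 letters in the 250 bases before the start. Each gene shown holds it, so the promoters shown do not stand for the list.
Sycp3: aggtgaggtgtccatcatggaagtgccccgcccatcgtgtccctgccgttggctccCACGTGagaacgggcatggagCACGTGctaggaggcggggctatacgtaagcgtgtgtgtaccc
Sycp1: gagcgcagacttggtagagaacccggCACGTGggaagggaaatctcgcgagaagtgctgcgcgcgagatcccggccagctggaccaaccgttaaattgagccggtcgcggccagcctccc
Hormad1: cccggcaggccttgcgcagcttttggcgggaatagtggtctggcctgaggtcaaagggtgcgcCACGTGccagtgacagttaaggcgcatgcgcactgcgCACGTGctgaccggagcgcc
Tex12: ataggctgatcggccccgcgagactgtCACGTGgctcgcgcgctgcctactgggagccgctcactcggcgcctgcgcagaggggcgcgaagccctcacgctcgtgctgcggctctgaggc
The motif lay in these windows at -64 to -59 and -43 to -38 for Sycp3 (chr10:88459467-88459586, plus strand), at -94 to -89 for Sycp1 (chr3:102936101-102936220, minus strand), at -57 to -52 and -20 to -15 for Hormad1 (chr3:95559557-95559676, plus strand) and at -93 to -88 for Tex12 (chr9:50561269-50561388, minus strand), counted from the start site. CACGTG occurred before 8 of 21 synaptonemal complex and axis genes with a promoter in the table (38.1%), 8 of 18 germ cell and piRNA genes (44.4%), 2 of 20 recombination genes (10.0%) and 1 of 21 pluripotency genes (4.76%), and before 1143 of all 11938 tested genes with a promoter (9.57%). Over the meiotic entry, axis and recombination lists it stood before 6 of 24 genes called higher and 6 of 24 others, so its presence did not separate the genes that rose from those that did not. A second motif, CNCCTCAG (N for any base), was searched in the same bases. In these lists it stood before 2 of 24 genes called higher (8.33%) and 5 of 24 others (20.8%), against 8.71% of all tested genes with a promoter. A match is a run of letters and not evidence of binding.

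Of 25 chromosome axis and synaptonemal complex genes tested, 15 were higher and 2 lower, with a median log2 fold change of 1.51, and 5 of the 15 lay under the filter's level in every E13.5 library. Sycp3, a lateral element protein, stood at 14.4, 12.5, 13.3 and 12.9 CPM at E13.5 and at 290, 618, 245 and 498 CPM at E18.5 (log2 fold change 4.96 ± 0.31, SE; adjusted p = 8.79e-06). Sycp1, the transverse filament, went from 7.31, 8.44, 10.7 and 7.40 CPM to 150, 311, 148 and 430 CPM (log2 fold change 4.95 ± 0.39, SE; adjusted p = 3.01e-05). For both, the E13.5 libraries lay close together and the E18.5 libraries fell into a lower pair, replicates 1 and 3, and a higher pair, replicates 2 and 4. The same order was frequent in the list: 13 of the 15 higher genes had their highest E18.5 value in replicate 2 or 4, against 54.7% of all genes tested.

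Sycp2, the other lateral element protein, rose by 5.58, Ankrd31 by 6.17 and the central element gene Tex12 by 3.08 on the log2 scale. The meiotic cohesin subunit Rad21l was near the limit of detection at E13.5, with counts in replicate 1 alone (0.0487 CPM), and reached 0.772 to 1.97 CPM at E18.5 (adjusted p = 0.000305). Smc1b and Hormad1 were already expressed at E13.5, at 87.8 to 116 CPM and 22.6 to 35.1 CPM, and rose by 1.51 and 1.43. The central element gene Syce1 was higher by 1.05 (adjusted p = 0.0189), which was lost without E13.5 replicate 2, E18.5 replicate 2 or E18.5 replicate 4 (adjusted p = 0.0515, 0.0619 and 0.0527). The cohesin subunit Stag3 and Trip13, an ATPase that removes HORMAD proteins from paired axes, went the other way, by -0.81 and -1.27 (adjusted p = 0.00612 and 0.000203).

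Of 27 recombination genes 15 were higher, 3 of them from under the filter's level, and 1 was lower, with a median of 1.47. Spo11, whose product cuts DNA to start recombination (chromosome 2, 172977700 to 172993576, GRCm38), had 0.146, 0.659, 0.336 and 0.515 CPM at E13.5 and 20.0, 17.6, 18.3 and 15.2 CPM at E18.5 (log2 fold change 5.41 ± 0.38, SE; adjusted p = 1.44e-05). Its E18.5 libraries were alike, without the split into pairs seen for Sycp1. The single-strand DNA binding partners Meiob and Spata22 rose together, by 5.31 and 7.17, with Spata22 between 0.0839 and 0.12 CPM in every E13.5 library and between 12.4 and 16.3 CPM in every E18.5 library.

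Prdm9, the histone methyltransferase that positions recombination hotspots, rose by 3.47, the crossover factors Msh4, Hfm1 and Tex11 by 2.53, 1.90 and 1.47, and Mlh3 by 0.78 (largest adjusted p of these 5, 0.00284). AI481877, a member of this list, rose by 4.40 (adjusted p = 5.56e-05). Dmc1, the meiotic strand exchange gene, had 3.32 to 5.21 CPM and then 5.74 to 7.81 CPM (adjusted p = 0.0827). Mei4 had 1.45 to 2.46 CPM at E13.5 and 0.662 to 1.85 CPM at E18.5 (adjusted p = 0.225). Rnf212 stood at 3.10 CPM in E13.5 replicate 3, at no more than 0.14 CPM in the other E13.5 libraries and at 3.70 to 5.57 CPM at E18.5 (adjusted p = 0.0897); without E13.5 replicate 3 the log2 fold change was 5.73 (adjusted p = 0.000161).

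**Figure D2:**
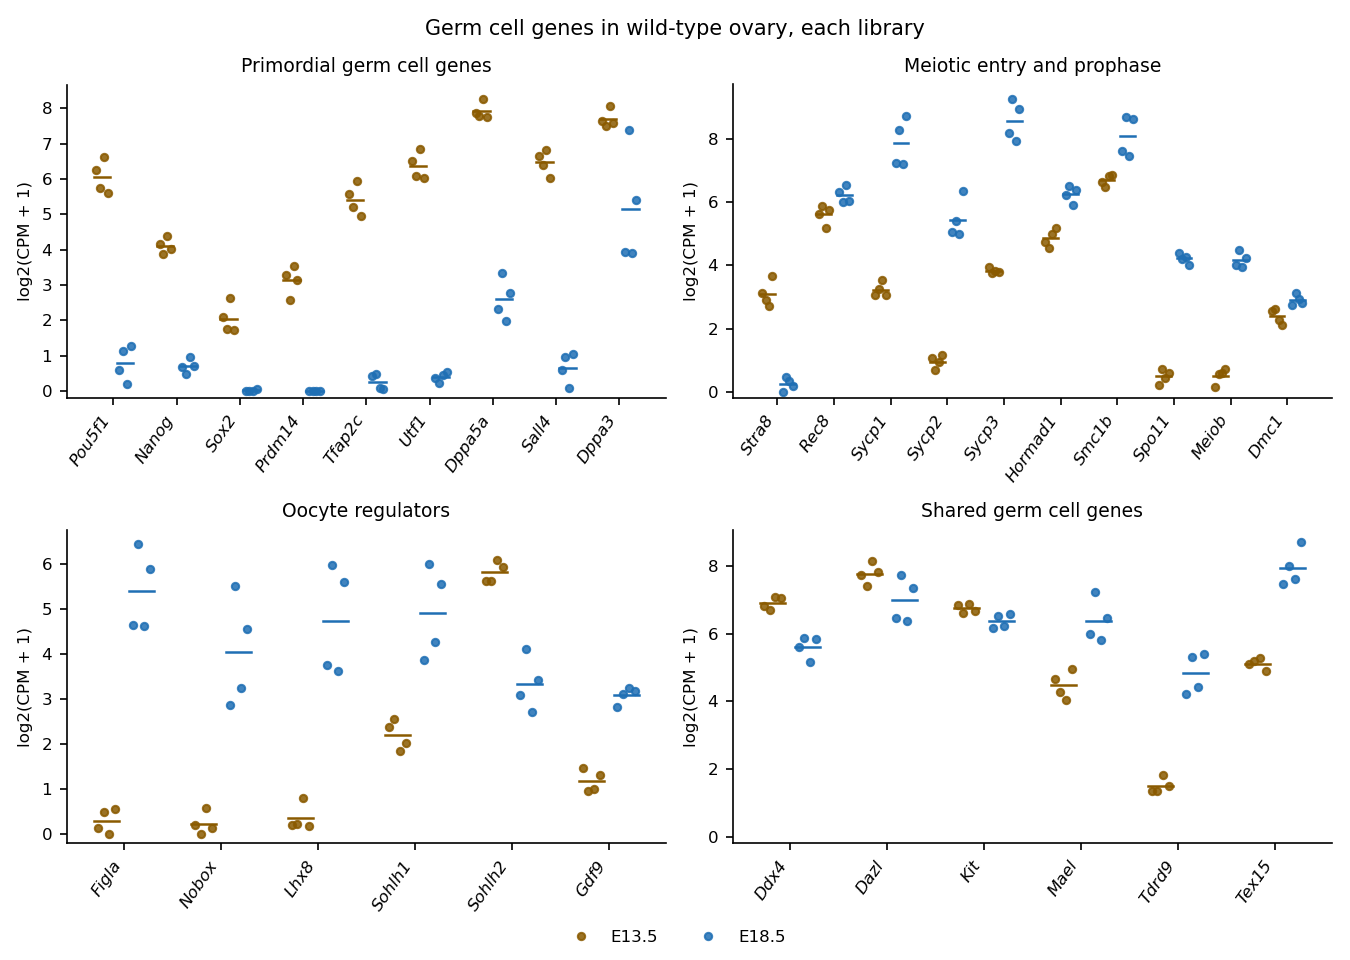
Levels of germ cell genes as log2(CPM + 1), with a point for each of the 4 E13.5 and 4 E18.5 wild-type libraries and a line at the mean of each age. Pou5f1 sat at 47.1 to 96.5 CPM at E13.5 and at or under 1.41 CPM at E18.5, while Sycp1, Sycp3, Spo11, Figla and Nobox were higher in every E18.5 library than in any E13.5 library.

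Genes that mark germ cells throughout moved in both directions. Of 22 germ cell and piRNA genes tested, 9 rose and 5 fell. Ddx4, an RNA helicase of all germ cells after colonisation of the gonad, fell from 103 to 134.7 CPM to 35 to 57.8 CPM (log2 fold change -1.3 ± 0.17, SE; adjusted p = 0.000366). Dazl, an RNA-binding protein, stood at 168 to 282 CPM and then at 88.1, 214, 81.7 and 163 CPM, with overlapping ages (adjusted p = 0.0963); without E18.5 replicate 2 the log2 fold change was -1.04 (adjusted p = 0.022). The receptor Kit, which somatic and mast cells also express, had 98.0 to 118 CPM and then 71.1 to 96.0 CPM (adjusted p = 0.0512). Without E18.5 replicate 2 or 4 the adjusted p was 0.0425 or 0.0374. Kit was also called lower with DESeq2 (0.0361), DESeq2's size factors (0.0461), limma-voom with sample weights (0.00994) and counts thinned to equal depth (0.0414).

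Tdrd9, a helicase of the piRNA pathway that silences transposons, rose by 4.00 on the log2 scale, and Tex101, a germ cell surface glycoprotein, by 2.98 (adjusted p = 3.57e-05 and 8.21e-06). Dnd1 and Nanos3, which protect migrating and mitotic germ cells, fell by 3.05 and 1.57, and Tex14 and Tdrd12 by 1.60 and 1.58. All 9 genes that rose had their highest E18.5 value in replicate 2 or 4, against 54.7% of all genes tested.

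Several oocyte regulators were higher at E18.5. Of 30 genes in the oocyte and follicle assembly list only 11 passed the low-count filter, and a member that passed through its E18.5 level had to differ, so the 6 higher and 2 lower members are given as a description. Figla, the factor that starts the zona pellucida programme and primordial follicle formation (chromosome 6, 86016171 to 86020996, GRCm38), had 0.0975, 0.419, 0 and 0.468 CPM at E13.5 and 24.1, 85.1, 23.4 and 58.0 CPM at E18.5 (log2 fold change 7.46 ± 0.71, SE; adjusted p = 8.35e-05). Nobox and Lhx8, homeobox factors of the early oocyte, rose by 6.92 and 6.93, with Nobox at 6.29, 44.2, 8.43 and 22.4 CPM at E18.5. Here too replicates 2 and 4 were above replicates 1 and 3, by a wider margin than for Sycp3.

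Sohlh1 and Sohlh2 encode partner helix-loop-helix factors of early oocytes and moved apart: Sohlh1 rose from 2.60 to 4.85 CPM to 13.6 to 62.4 CPM, and Sohlh2 fell from 47.8 to 66.7 CPM to 5.55 to 16.3 CPM (adjusted p = 0.000773 and 0.00024). The growth factor Gdf9 rose from 0.958 to 1.75 CPM to 6.07 to 8.48 CPM (adjusted p = 0.000207), and in the PND8 wild-type libraries averaged 53.7 CPM. The zona pellucida genes were barely detected: Zp2 reached 3.11 CPM and Zp3 1.26 CPM, both in E18.5 replicate 2. Tle6 and Khdc3, subunits of the same maternal complex, moved by 0.97 and -3.08 (adjusted p = 0.00565 and 0.00818), Khdc3 from at most 1.34 CPM.

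Oocyte quality control genes gave 1 call in 13 genes tested, below the background share (2 calls without E13.5 replicate 3). Trp63, which encodes the guardian of the oocyte pool TAp63 among other isoforms, stood at 1.61, 0.12, 3.69 and 0.655 CPM at E13.5 and 2.43, 6.94, 1.80 and 4.67 CPM at E18.5 (adjusted p = 0.189); without E13.5 replicate 3 the log2 fold change was 2.29 (adjusted p = 0.0368). The single call, Casp2, was lower by 0.49 with overlapping ages, and left the threshold without E13.5 replicate 1, 2 or 4 or E18.5 replicate 3 or 4 (adjusted p between 0.0612 and 0.0737).

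Among blood-derived genes the embryonic globins fell and mast cell genes rose. The embryonic globins are made by primitive red cells from the yolk sac. Hbb-y had 1554, 1595, 51530 and 1641 CPM at E13.5 and 1.38, 0.0546, 0.257 and 0.661 CPM at E18.5 (log2 fold change -14.54 ± 2.27, SE; adjusted p = 0.00248). Hba-x went from 496 to 22010 CPM to at most 0.497 CPM, and Hbb-bh1 from 32.1 to 1919 CPM to at most 0.497 CPM. Of these 3 genes, 2 lay under the filter's level in every E18.5 library. E13.5 replicate 3 held by far the most of all 3, and the other 3 E13.5 libraries were still well above every E18.5 library; without that replicate Hbb-bh1 fell by 7.08 instead of 10.79, with the call kept. The fit of limma-voom with sample weights ended the call of Hbb-bh1 (adjusted p = 0.0764), and DESeq2 gave these 3 genes no adjusted p.

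Adult globins and the other red cell genes overlapped between ages and varied widely between libraries of an age. Hbb-bs stood at 596, 765, 12080 and 1529 CPM at E13.5 and 8436, 2169, 10210 and 458 CPM at E18.5 (adjusted p = 0.785), and Hbb-bt and Hba-a1 overlapped in the same way (adjusted p = 0.635 and 0.406). None of 16 other erythroid genes passed the edgeR test, among them Alas2, the erythroid haem synthesis enzyme, the membrane protein Slc4a1 and the factor Klf1, and 2 were higher without E13.5 replicate 3. Without the red cell libraries Slc4a1 was called lower, by 3.73 on the log2 scale (adjusted p = 0.00102). All 16 erythroid genes had their highest E18.5 value in replicate 1 or 3, against 7520 of all 16603 genes tested. Their summed level ranged from 132 to 3323 CPM at E13.5 and from 78.4 to 1836 CPM at E18.5.

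Mast cell genes had the largest fitted log2 fold changes upward. Tpsb2, a granule tryptase (chromosome 17, 25366305 to 25369098, GRCm38), had 0.244, 1.14, 0.252 and 0.14 CPM at E13.5 and 586, 582, 870 and 700 CPM at E18.5 (log2 fold change 10.61 ± 0.49, SE; adjusted p = 1.65e-06). The 4 E18.5 libraries stood together, unlike for red cell genes. The chymase Cma1 rose from at most 1.56 CPM to 411 to 593 CPM, the protease Prss34 from at most 0.419 CPM to 70.5 to 126 CPM, and the carboxypeptidase Cpa3 from 4.63 to 20.9 CPM to 478 to 613 CPM.

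Tpsab1, Mcpt4, Gpr141b and Mrgprb2 had no count in any E13.5 library and were at least 440-, 305-, 214- and 161-fold higher at E18.5 against 3 counts over the 4 libraries. Tpsab1 and Mcpt4 encode mast cell proteases, and Mrgprb2 a receptor of connective tissue mast cells. Ms4a2, the beta chain of the high-affinity IgE receptor, rose by 4.15 (adjusted p = 0.000595). The summed level of the mast cell and granulocyte list was 83.4 to 130 CPM at E13.5 and 1777 to 2489 CPM at E18.5, and 7 of its 16 genes tested rose, 4 of them from under the filter's level in every E13.5 library. Among granulocyte members S100a8 and S100a9 overlapped between ages (adjusted p = 0.845 and 0.412), and Ngp was lower by 1.72, a call kept, among the fits without 1 library, only without E13.5 replicate 4 or E18.5 replicate 4 (adjusted p between 0.066 and 0.0928 without each other library). The basophil protease gene Mcpt8 reached at most 2.13 CPM, while Prss34, Cpa3 and Ms4a2, which basophils also express, rose. In the later wild-type ages Tpsb2 averaged 5.22 CPM at PND8 and 0.638 CPM at 12 weeks.

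Of 24 macrophage genes tested, 1 rose and none fell, under the background share, with summed levels of 238 to 422 CPM at E13.5 and 250 to 434 CPM at E18.5. Csf1r, the receptor on which macrophages depend, stood at 18.6, 25.0, 22.9 and 34.5 CPM and then at 13.0, 19.8, 29.2 and 25.9 CPM, with overlapping ages (log2 fold change -0.20 ± 0.27, SE; adjusted p = 0.601). Without E13.5 replicate 4, the library with the most macrophage RNA at that age by several markers, 5 genes were higher, and 2 genes were called without E13.5 replicate 2 or E18.5 replicate 1, 2 or 4. Adgre1, Cd68, C1qa, Cx3cr1 and Ptprc overlapped as well, with adjusted p between 0.207 and 0.863, and limma-voom with sample weights called Ptprc higher by 1.15 (adjusted p = 0.00992). Mrc1 had an adjusted p of 0.241 and, without E13.5 replicate 4, a log2 fold change of 0.93 (adjusted p = 0.0275).

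The single macrophage call was Fcgr3, an Fc receptor that mast cells carry too (log2 fold change 1.05 ± 0.25, SE; adjusted p = 0.00857), and Cd163 reached at most 0.656 CPM. None of 6 class II antigen presentation genes was called, Cd74, H2-Aa and H2-Ab1 included (adjusted p = 0.921, 0.192 and 0.706), and 1 was called without E18.5 replicate 4. The T cell gene Cd3e and the NK cell gene Nkg7 were too low to be tested. Cd79b was lower by 1.02, a call that, among the fits without 1 library, only the one without E18.5 replicate 2 kept (adjusted p without each other library, 0.0557 to 0.12). Platelet genes were lower in 3 of 6 cases, among them Ppbp from 1.85 to 13.4 CPM to at most 0.437 CPM and Gp1bb from 0.958 to 11.8 CPM to at most 0.328 CPM, while Itga2b overlapped (adjusted p = 0.155). Ppbp and Gp1bb lay under the filter's level in every E18.5 library, so their direction was fixed by how they passed.

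**Figure D3:**
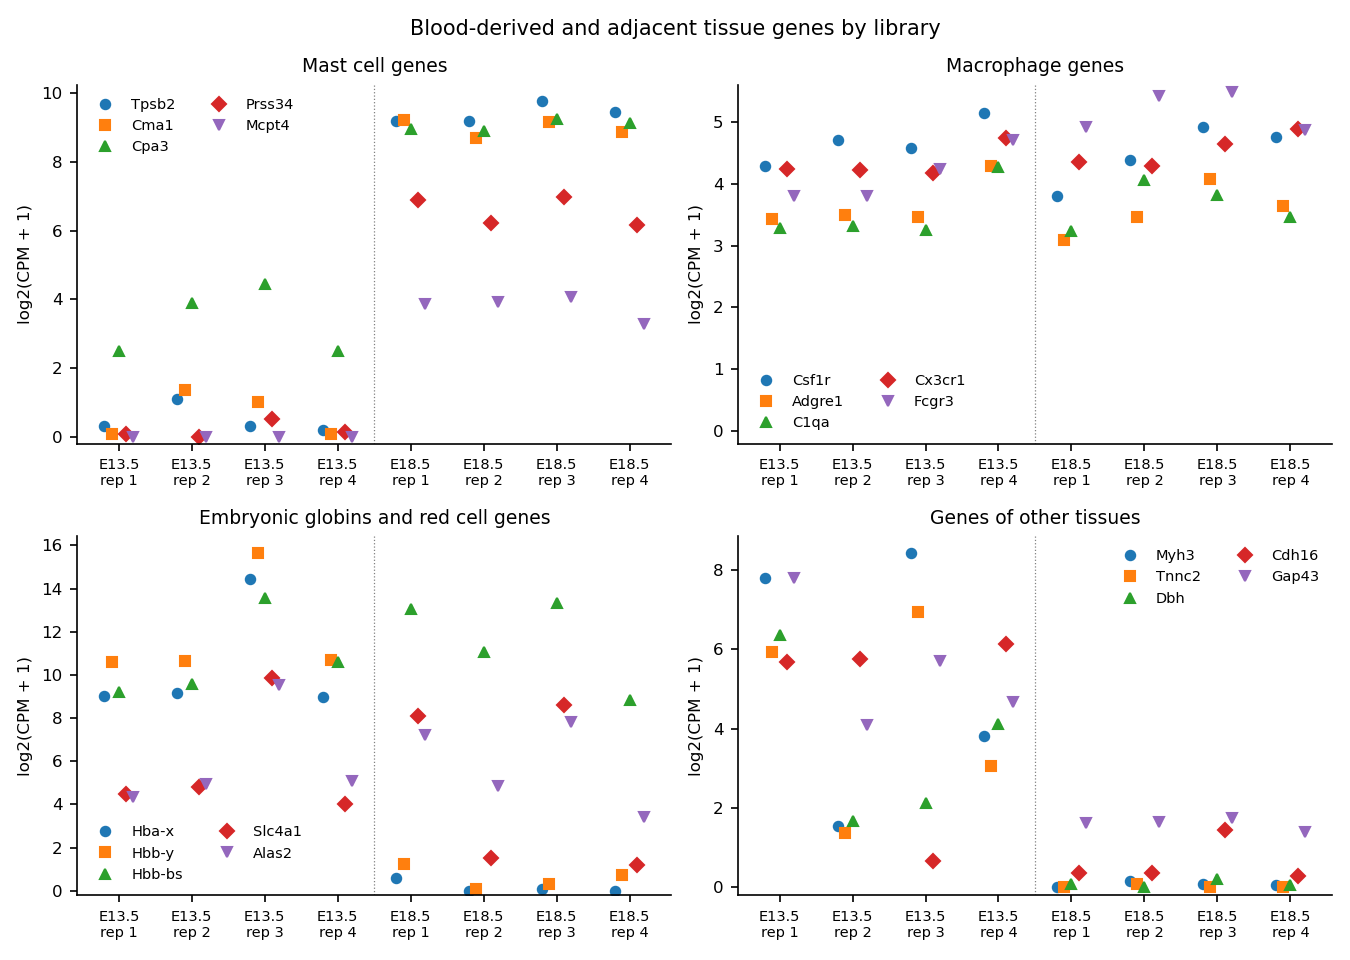
Levels of single genes of blood cells and neighbouring tissues as log2(CPM + 1), by wild-type library, with a dotted line between the ages. Mast cell genes separated the ages, Slc4a1 and Alas2 were highest in E13.5 replicate 3 and E18.5 replicates 1 and 3, and the muscle genes Myh3 and Tnnc2 were highest in E13.5 replicates 1 and 3.

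Of 24 genes of the supporting lineage tested 13 rose and 3 fell. The 16 calls were 9 or 10 without E13.5 replicate 1 or 4 or E18.5 replicate 2 or 4, with 3 lower in each. Foxl2, the transcription factor that maintains ovarian identity (chromosome 9, 98955288 to 98958543, GRCm38), stood at 6.34, 18.3, 10.7 and 4.45 CPM at E13.5 and 29.2, 67.4, 41.0 and 63.2 CPM at E18.5 (log2 fold change 2.35 ± 0.44, SE; adjusted p = 0.00271). The ages did not overlap. The activin antagonist Fst rose from 71.6 to 97.8 CPM to 195 to 244 CPM (log2 fold change 1.40 ± 0.14, SE; adjusted p = 7.14e-05), Kitl, the ligand through which pregranulosa cells signal to oocytes, from 249 to 549 CPM to 740 to 1152 CPM, and Lgr5, a marker of surface-derived pregranulosa cells, by 1.90.

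Runx1 and Gng13 rose by 1.23 and 1.86 (adjusted p = 0.00112 and 0.00174). The WNT pathway genes Wnt4 and Rspo1 and the Iroquois genes Irx3 and Irx5 were higher by 0.72, 1.13, 0.83 and 1.47, with calls that rested on single libraries. Wnt4 lost its call without E13.5 replicate 1, 2 or 4 or E18.5 replicate 2 or 4 (adjusted p between 0.0639 and 0.149), Rspo1 and Irx5 without E13.5 replicate 1 or 4 or E18.5 replicate 2 or 4 (up to 0.0675 and 0.0671), and Irx3 kept it, among these fits, only without E13.5 replicate 2 (0.0701 to 0.112 without each other library). Of the same list, Lhx9, Cbx2 and Lef1 fell by 1.16, 1.89 and 1.59 (adjusted p = 0.00535, 0.000299 and 5.82e-05), while Gata4, Nr5a1 and Bmp2 overlapped between ages (adjusted p = 0.34, 0.201 and 0.699). Without E13.5 replicate 2, Nr5a1 was higher by 0.70 (adjusted p = 0.0272).

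Of 13 granulosa genes tested 6 rose, 3 of them from under the filter's level in every E13.5 library, and 1 was lower. Gatm, which makes a creatine precursor, rose from 53.4 to 106 CPM to 710 to 887 CPM (log2 fold change 3.37 ± 0.21, SE; adjusted p = 9.18e-06), and the inhibin subunit Inha by 1.66. Esr2, the granulosa oestrogen receptor, rose by 3.83 to 3.31 to 6.96 CPM, the oestrogen-making enzyme gene Hsd17b1 by 3.56 to at most 1.75 CPM and Amh by 2.86 to at most 1.45 CPM. Fshr had no count at E13.5 and at most 0.205 CPM at E18.5. Dhh, the hedgehog ligand, overlapped (adjusted p = 0.232), and Inhba was lower by 1.11 at an adjusted p of 0.0497, a call kept, among the fits without 1 library, only without E13.5 replicate 3 (0.0635 to 0.132 without each other library).

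Genes of the testis pathway gave no common direction, with 2 higher and 4 lower of 9 tested. Sox9 fell from 39.1 to 63.9 CPM to 22.4 to 30.1 CPM, Cldn11 by 1.88, and Dmrt1, which germ cells also express, by 4.01 (adjusted p = 0.00222, 0.00832 and 8.21e-06). Ptgds and Cyp17a1 rose by 2.64 and 1.57 (adjusted p = 0.00403 and 0.0156; for Cyp17a1 0.35 in a fit with all 4 wild-type ages). Nanos2, the male germ cell fate gene, had no count in any of the 8 libraries.

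Extracellular matrix genes rose more often than they fell: of 28 extracellular matrix genes tested, 16 rose and 2 fell, median 0.68. Eln, the elastin gene, stood at 21.5, 28.2, 20.6 and 10.8 CPM at E13.5 and 139, 130, 199 and 238 CPM at E18.5 (log2 fold change 3.12 ± 0.30, SE; adjusted p = 7.33e-05). The proteoglycan Bgn and the microfibril gene Mfap4 rose by 1.47 and 1.88, and the collagen Col3a1 by 0.87. The other abundant matrix genes Col1a1, Lum and Dcn were not called (adjusted p = 0.33, 0.826 and 0.298); without E18.5 replicate 2, Col1a1 was higher by 0.50 (adjusted p = 0.026). Vcan, a proteoglycan of embryonic matrix, fell by 1.94 (adjusted p = 0.000971), and Postn was lower by 0.64, lost without E13.5 replicate 1 or 4 or E18.5 replicate 1, 3 or 4 (adjusted p between 0.0805 and 0.0896).

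Stromal and hedgehog pathway genes split, 3 higher and 4 lower of 15, a share called of 46.7% against 34.0% of all genes tested. Of the 4 lower, 1 lay under the filter's level in every E18.5 library. Tcf21 and Maf, transcription factors of gonadal stroma, rose by 1.15 and 0.56, Thy1 and the hedgehog antagonist Hhip fell by 3.45 and 4.14, and Pdgfra, Gli1 and Ptch1 overlapped (adjusted p = 0.865, 0.608 and 0.379). Nr2f2 was lower by 0.63 (adjusted p = 0.0175; 0.055 without E18.5 replicate 3), and Igf1 higher by 0.65 (adjusted p = 0.0281; 0.0564 to 0.088 without E13.5 replicate 1 or E18.5 replicate 2, 3 or 4).

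Of 14 steroidogenic genes 6 rose and 4 fell. Hsd3b1 had 15.2, 17.8, 15.5 and 23.2 CPM at E13.5 and 243, 210, 187 and 121 CPM at E18.5 (log2 fold change 3.40 ± 0.24, SE; adjusted p = 1.44e-05), and the side-chain cleavage enzyme Cyp11a1, the luteinising hormone receptor Lhcgr and Akr1c18 rose by 2.31, 2.69 and 2.76. Star was not called (adjusted p = 0.104; log2 fold change 0.92 and 0.0251 without E18.5 replicate 1), and Por was lower by 0.51, lost without E13.5 replicate 1, 2 or 4 or E18.5 replicate 1, 2 or 3 (0.0502 to 0.113).

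Hsd3b6, a relative of Hsd3b1, was dominated by 1 library, at 34.8, 38.7, 1140 and 28.1 CPM at E13.5, and 2.32, 0.328, 6.17 and 0.132 CPM at E18.5. The ages did not overlap (adjusted p = 0.029), and the call was lost without E18.5 replicate 1 or 4 (0.0717 and 0.0507) and was a fall by 3.92 without E13.5 replicate 3. That replicate also held the highest levels of red cell genes; the part of these in the result was not tested.

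**Figure D4:**
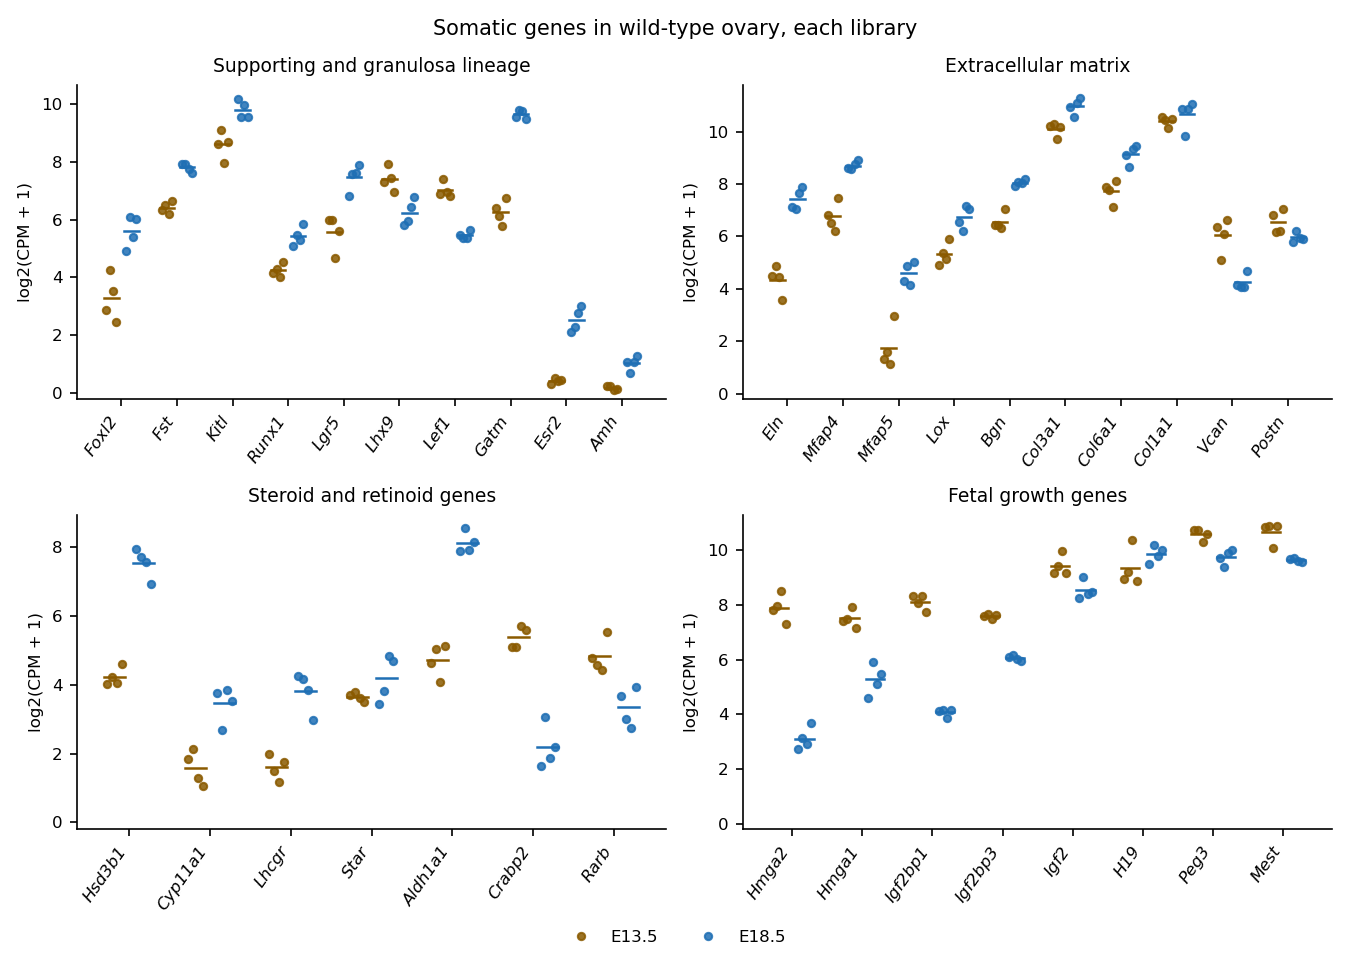
Levels of somatic genes as log2(CPM + 1), with a point for each wild-type library and a line at the mean of each age. Foxl2, Gatm, Eln, Hsd3b1 and Aldh1a1 were higher in all 4 E18.5 libraries than in any E13.5 library.

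Of 15 retinoic acid pathway genes 3 were higher and 5 lower, 1 of the 5 under the filter's level in every E18.5 library. Aldh1a1, which makes retinoic acid, rose from 16.0 to 34.0 CPM to 236 to 376 CPM (log2 fold change 3.42 ± 0.26, SE; adjusted p = 2.03e-05), and the carrier Rbp4 by 2.81. The retinoic acid binding protein Crabp2, the receptor Rarb and the receptor Rxrg fell by 3.40, 1.56 and 3.97, and Crabp1 by 1.54. Aldh1a2 and the degrading enzyme Cyp26b1 were not called (adjusted p = 0.453 and 0.0645), and Cyp26b1 was lower with DESeq2 (0.0341) and without E13.5 replicate 2 (0.0468). Dhrs3 was higher by 0.76 (adjusted p = 0.0224; 0.0588 and 0.0545 without E18.5 replicate 1 or 2).

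Of 15 Notch pathway genes 3 were higher and 3 lower, a share called of 40%, near the 34.0% of all genes tested. Of the 3 lower, 1 lay under the filter's level in every E18.5 library. The target Hes1 rose by 1.05, and the targets Hes5 and Hey1 and the modifier Lfng fell by 4.28, 0.83 and 1.31 (adjusted p = 0.00584, 0.00031, 0.00357 and 0.00397). The ligand Jag2 was higher by 1.49, with E18.5 replicates 2 and 4 at 19.8 and 20.9 CPM and replicates 1 and 3 at 7.83 and 6.94 CPM, a call lost without replicate 2 or 4 (0.0587 and 0.0543). Notch2 was higher by 0.72, lost without E13.5 replicate 1 or 2 or E18.5 replicate 2 or 4 (0.0556 to 0.0652). Jag1 and Hey2 were not called (0.148 and 0.0626); without E18.5 replicate 2 Jag1 was at 0.0328, and without E18.5 replicate 4 Hey2 was at 0.0268.

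Of 12 mural and smooth muscle genes 6 rose and 1 fell, their summed level going from 270 to 440 CPM to 646 to 830 CPM. The contractile genes Mylk and Myh11 and the pericyte channel subunit Abcc9 rose by 1.77, 1.42 and 2.26, and Higd1b, a pericyte marker outside the list, by 8.51 (adjusted p = 1.92e-05). Rgs5, Acta2 and Cspg4 were not called (0.151, 0.24 and 0.0724); without 1 library each passed, Rgs5 without E13.5 replicate 1 (0.0272), Acta2 without E13.5 replicate 3 (0.0138) and Cspg4 without E13.5 replicate 3 or E18.5 replicate 1 (0.0414 and 0.0403). Des, which skeletal muscle shares, fell by 1.71, with its highest values of 41.0 and 82.5 CPM in E13.5 replicates 1 and 3.

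Of 23 endothelial genes 1 was higher and 2 were lower, under the background share (1 call without E13.5 replicate 4). Cdh5, the endothelial cadherin, stood at 35, 42.5, 18.3 and 37.0 CPM and then at 50.2, 65.1, 12.9 and 13.7 CPM (adjusted p = 0.914). The E18.5 libraries formed pairs in another way here, with replicates 1 and 2 above 3 and 4, and Emcn and Cldn5 showed the same order (adjusted p = 0.384 and 0.491). Ramp2 rose by 1.00 (adjusted p = 0.00387). Pecam1 was lower by 1.34 (adjusted p = 0.0217; 0.0521 without E13.5 replicate 4) and Plvap by 1.87, lost without E13.5 replicate 1, 2 or 4 or E18.5 replicate 3 or 4 (0.0514 to 0.0855), and Kdr was not called (0.151; 0.0326 without E13.5 replicate 3).

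The surface epithelium list gave 2 higher and 3 lower of 14, and 3 calls without E13.5 replicate 1 or 2 or E18.5 replicate 2 or 3. Its share called, 35.7%, was near the 34.0% of all genes tested. The cadherin gene Cdh1 and Lrrn4 fell by 2.14 and 2.40 (adjusted p = 0.00245 and 0.0148), and the mesothelial marker Upk3b overlapped (adjusted p = 0.755). Krt19 and Msln were higher by 1.76 and 3.33 and Bnc1 lower by 1.46. These calls were lost without E13.5 replicate 1 or E18.5 replicate 3 for Krt19 (0.06 and 0.0525), without E13.5 replicate 1 or 2 or E18.5 replicate 2 or 4 for Msln (0.0502 to 0.0611), and without E13.5 replicate 2 or E18.5 replicate 2 or 3 for Bnc1 (0.0565 to 0.0642).

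Most cell division genes fell: 21 of 24 S phase genes and 23 of 26 G2/M genes were lower at E18.5 and none was higher, with medians of -1.38 and -1.41. Cdc20, an activator of the anaphase-promoting complex, had 158, 163, 164 and 195 CPM at E13.5 and 50.1, 44.1, 43.8 and 38.5 CPM at E18.5 (log2 fold change -1.95 ± 0.13, SE; adjusted p = 1.02e-05). Ccnb1, the mitotic cyclin B1, fell by 2.38, Plk1 by 1.88, Top2a by 1.53, Ccna2 by 1.47, Aurkb by 1.45 and Cdk1 by 0.76. The replication helicase genes Mcm2, Mcm3 and Mcm7 fell by 1.79, 1.61 and 1.72, and the clamp gene Pcna by 0.75.

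Ccne2 and Mki67 were the leading exceptions, with overlapping ages (adjusted p = 0.979 and 0.537). Among the genes that fell, E18.5 replicate 1 was the highest E18.5 library for 19 of the 21 S phase genes and 22 of the 23 G2/M genes. That library was the highest for 4463 of all 16603 genes tested. Ccnb3, a cyclin of meiotic cells on the X chromosome, rose instead, from at most 0.146 CPM to 37.0 to 56.6 CPM (log2 fold change 9.20 ± 0.40, SE; adjusted p = 1.01e-06). Pet2, also on the X chromosome, and Pdcl2, the remaining genes among the largest gains, rose by 8.47 and 7.64 (adjusted p = 1.78e-05 and 3.1e-05).

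Among cell cycle inhibitors only Cdkn1b rose, of 7 tested. Cdkn1b (chromosome 6, 134920401 to 134925513, GRCm38) stood at 25.8, 20.4, 24.2 and 27.8 CPM at E13.5 and 131, 104, 102 and 103 CPM at E18.5 (log2 fold change 2.16 ± 0.14, SE; adjusted p = 1.08e-05). Cdkn1a fell by 1.36 and Cdkn1c, at 1096 to 3282 CPM at E13.5 and 374 to 1002 CPM at E18.5, by 1.64 (adjusted p = 0.000455 and 0.014; for Cdkn1c 0.0699 without the filter and 0.0798 with limma-voom). Cdkn2a and Cdkn2d were not called (adjusted p = 0.533 and 0.508).

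The change over age was then compared with that in p27null ovaries, 3 libraries at E13.5 and 4 at E18.5, by the stage by genotype interaction. Of 18052 genes tested 76 were called (0.421%), and for 74 the wild-type change was the more negative. The 4 with the smallest p were Cdc20, Racgap1, Chaf1b and Prc1, genes of mitotic exit, cytokinesis, chromatin assembly at the fork and the spindle midzone. CPM values in this comparison were scaled over its 15 libraries and so differ slightly from those above. Cdc20 averaged 44.1 ± 4.28 CPM in wild-type and 134 ± 9.18 CPM in p27null ovaries at E18.5 (SD, n = 4 each), after 170 ± 14.0 CPM (n = 4) and 174 ± 13.6 CPM (n = 3) at E13.5, so that the groups overlapped at E13.5 and did not at E18.5 (difference of log2 fold changes -1.57 ± 0.14, SE; adjusted p = 0.000231).

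Racgap1, Chaf1b and Prc1 differed in the same way, by -1.41, -1.3 and -1.48 (adjusted p = 0.00426 each). Of the S phase and G2/M lists, 10 of 24 and 11 of 26 genes were called, and 48 of the 50 had a negative difference, with medians of -0.98 and -1.06. Ccnb1, Top2a and Mcm2 differed by -1.46, -1.43 and -1.16 (adjusted p = 0.00807, 0.0069 and 0.0373), while Mki67 was not called (-0.92; adjusted p = 0.42). The number called was 127 without wild-type E18.5 replicate 1, the library in which most wild-type division genes were highest. It was 32 to 48 without wild-type E13.5 replicate 1 or 2, wild-type E18.5 replicate 3 or 4, p27null E13.5 replicate 3 or 4 or p27null E18.5 replicate 3 or 4, lowest without p27null E13.5 replicate 4.

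**Figure D5:**
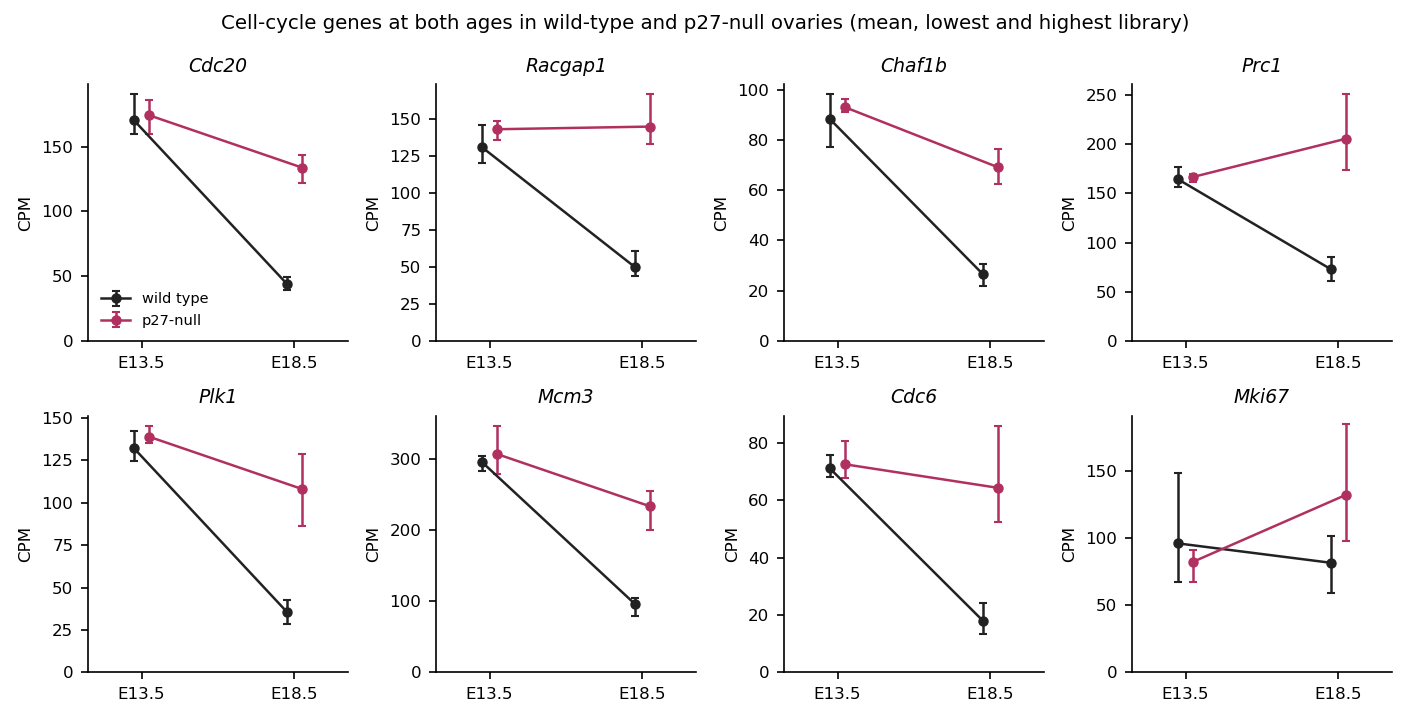
CPM of cell division genes by age and genotype, scaled over the 15 libraries, with points at the mean and bars from the lowest to the highest library. At E13.5 the ranges of wild-type and p27null libraries overlapped, and at E18.5 the wild-type libraries lay below the p27null libraries for Cdc20, at 39.2 to 49.6 against 122 to 144 CPM.

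Fetal growth genes fell in 11 of 14 cases and none rose. Igf2bp1, an RNA-binding protein of fetal tissues, had 322, 272, 321 and 214 CPM at E13.5 and 16.5, 16.7, 13.6 and 16.8 CPM at E18.5 (log2 fold change -4.15 ± 0.17, SE; adjusted p = 7.58e-07), and the chromatin protein Hmga2 fell by 4.96, Hmga1 by 2.21, Igf2bp3 by 1.56 and the growth factor Igf2 by 0.89. The E18.5 libraries were nearly equal for Igf2bp1, including those that differed in oocyte and red cell genes. The imprinted RNAs H19 and Meg3 were not called (adjusted p = 0.378 and 0.767), both highest in E13.5 replicate 3; without it, H19 was higher by 0.88 (adjusted p = 0.00416). Lin28b was not called (0.0707), and passed without E13.5 replicate 2 or E18.5 replicate 4 (0.0347 and 0.0354).

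Of 7 genes of the mesonephros and its duct, which lie beside the gonad, 6 fell, and their summed level went from 61.8 to 293 CPM to 27.5 to 47.3 CPM. Of the 6, 1 lay under the filter's level in every E18.5 library. Pax8 stood at 39.5, 45.3, 32.0 and 62.7 CPM and then at 11.2, 11.8, 10.5 and 6.34 CPM (log2 fold change -2.17 ± 0.26, SE; adjusted p = 0.000206), and Pax2 and Lhx1 fell by 5.77 and 5.23. The kidney cadherin Cdh16 had 50.6, 53.5, 0.587 and 69.7 CPM at E13.5 against at most 1.70 CPM at E18.5, so that E13.5 replicate 3 stood with the later libraries (adjusted p = 0.00909; 0.091 with limma-voom and sample weights). Wfdc2 fell by 2.58, and Ggt1, an enzyme gene outside the list, by 9.58.

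Neural crest and neuroendocrine genes fell in 10 of 16 cases and rose in 2. Of the 10, 3 lay under the filter's level in every E18.5 library, Dbh among them, so their direction was fixed by how they passed. Dbh, which makes noradrenaline, had 81.1, 2.15, 3.36 and 16.3 CPM at E13.5 and at most 0.154 CPM at E18.5 (adjusted p = 0.00486; 0.159 with limma-voom and sample weights). E13.5 replicate 1 held most of the RNA of Dbh and of the axon growth gene Gap43 (222 CPM against 16.0 to 51.0), while Chgb was highest in replicate 4 (117 CPM). Chga fell by 6.66, and Hand1, a factor of sympathetic and other embryonic cells, was at least 255-fold lower against 3 counts over the 4 E18.5 libraries, where it had none. S100b, a gene of glial cells, was higher by 1.59, a call kept, among the fits without 1 library, only without E13.5 replicate 4 (adjusted p without each other library, 0.0626 to 0.102).

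Genes typical of skeletal muscle were high in 2 libraries. Myh3, the embryonic myosin, stood at 224, 1.92, 347 and 13.1 CPM at E13.5 and at most 0.109 CPM at E18.5, and Acta1 and Tnnc2 had the same order (adjusted p = 0.00967, 0.00563 and 0.00494; 0.3, 0.252 and 0.104 with limma-voom and sample weights). Of 24 muscle genes, a set assembled after the values were seen, 18 fell. With E13.5 replicates 1 and 3 left out, Myh3, Acta1 and Tnnc2 still fell, by 7.02, 7.83 and 7.84 from the low levels of replicates 2 and 4 (largest adjusted p, Acta1, 0.00167). Without the red cell libraries Myh3 and Acta1 lost their calls (adjusted p = 0.0759 and 0.0513). Tnnc2 lost its call with counts thinned to equal depth (0.0513). Liver genes were low: Afp fell by 4.33 from at most 8.56 CPM, Serpina1a by 5.34 from at most 1.80 CPM, and Alb reached at most 5.79 CPM, in E13.5 replicate 3. Afp and Serpina1a lay under the filter's level in every E18.5 library.

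Of 14 immediate early and heat shock genes, which tissue dissociation can induce, 3 were higher and none lower. That share, 21.4%, was near the 16.6% of all genes tested that were called higher, and under the 34.0% called in either direction. Fos stood at 1.61, 0.898, 2.52 and 1.73 CPM at E13.5 and 26.4, 33.4, 10.2 and 8.28 CPM at E18.5 (log2 fold change 3.54 ± 0.51, SE; adjusted p = 0.000616), with E18.5 replicates 1 and 2 the highest. Egr1 and Hspa1a rose by 0.97 and 1.64 (adjusted p = 0.00632 and 0.000335; for Egr1 0.224 in a fit with all 4 wild-type ages), and Atf3 overlapped between ages (adjusted p = 0.202). All 8 libraries were dissociated with papain, and the part of the dissociation in these values was not tested.

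The counts by list were also taken without the libraries that stood apart, an alternative chosen after seeing the data. Without E13.5 replicates 1 and 3, those with muscle RNA, the pluripotency list had 17 called genes, the synaptonemal complex list 16, the recombination list 17, the mast cell list 7, the S phase list 21, the G2/M list 20, the matrix list 14 and the fetal growth list 12. Without E13.5 replicate 3 and E18.5 replicates 1 and 3, those with the most red cell RNA, the same lists had 17, 17, 19, 8, 22, 22, 17 and 11 called genes. Counts that moved by more than 1.5 times included those of the supporting lineage (16 called genes, and 10 without the muscle libraries), the neural crest list (12, and 6 without the red cell libraries), the stromal list (7, and 4), oocyte quality control (1, and 5) and the erythroid list (0, and 6, of which 5 were lower). The single lymphoid call, Cd79b, was lost without the muscle libraries (adjusted p = 0.0804) and without the red cell libraries (0.19). Xist was called in both settings, higher by 2.03 and 1.69. The surface epithelium calls of Bnc1, Krt19, Lrrn4 and Msln were lost without the muscle libraries.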

How the data were processed

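Total RNA of papain-dissociated ovaries was sequenced in 29 libraries, of which the 8 wild-type E13.5 and E18.5 libraries are used, and 7 p27null libraries for the interaction. The authors made expected counts per gene from trimmed, aligned reads with RSEM before they deposited them, per the file headers, whose IDs are those of Ensembl. Trim Galore, STAR 2.5.2 and RSEM 1.3.0 are named in the submitters' processing notes. The genome build, the library kit and its strandedness are not given in the sources used here, so overlapping and antisense genes are uncertain. RSEM divides reads that fit several genes among them, which makes 30.4% of the values above 0 non-whole (further than 0.005 from a whole number). Column names matched all samples. They also describe combined RNA sequencing projects, and which library came from which project is not given. No batch term could be fitted, so differences between projects cannot be told apart from those between ages.

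The expected counts were rounded, filtered with filterByExpr (minimum count 10, total 15), scaled by TMM and tested with edgeR 4.0.16 (R 4.3.3), quasi-likelihood with robust dispersion, groups only, Benjamini-Hochberg over all genes, threshold 0.05. SE is the log2 fold change divided by the root of F. CPM is counts per 1000000 of the library size after TMM over the 8 libraries (over 15 in the interaction, over 16 where PND8 or 12 weeks are given). Scripts were tested on simulated counts. Of 592 list symbols in 35 lists, 578 genes matched, 512 were tested and 276 called. Gcna, Ahsp and Meiosin had no match by symbol, but the gene Meiosin was matched under its other symbol, Gm4969. The members and lists were chosen with earlier results of these data known. Named genes are the leading members fixed for each list, up to 2 further called genes in each direction with the smallest p, called members that moved against their list's majority, the 12 largest changes in each direction (mean CPM of at least 2, groups not overlapping, no predicted gene names) and the 4 smallest interaction p. Some genes that this rule names are not reported here. Ccnb1, Top2a, Mcm2 and Mki67 in the interaction and the genes of the families in the closing section were chosen otherwise. Positions come from GENCODE vM21 (GRCm38) by gene ID and promoters from RefSeq (GRCm38.p6), matched by symbol. The limit of 3 counts, taken over the 4 libraries of an age, covers counting error only.

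No 2 libraries of a group were the same within sampling noise (chi-square per degree of freedom 23.9 or more). Alternatives were DESeq2 1.42.0, its size factors, limma 3.58.1 (voom with sample weights), no filter, scaling without globins, thinning to equal depth, a fit with all 4 wild-type ages, a replicate block and each library left out.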

Additional observations from a re-analysis of the deposited data

Results flagged for a closer look

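In each group of 4 libraries, the highest and lowest values of each reported gene were tested for a gap to the others by Dixon's ratio; chance flags about 1 group in 20, and 53 of 487 groups (10.9%) had a flag. E13.5 replicate 3 carried 21 of the flags. Its globin share was 18.97% of counts, and it was the highest for Hba-a1 (49140 CPM), Hbb-bs (12080), Hbb-bt (5815), Hbb-y (51530), Hba-x (22010), Hbb-bh1 (1919), Alas2 (742 CPM), Slc4a1 (939), Klf1 (77.8), the platelet gene Itga2b (22.4) and Nkg7 (2.18). It was also the highest for Hsd3b6 (1140 CPM), H19 (1344), Meg3 (708), Xist (188) and Rnf212 (3.10), and the lowest for Casp2 (88.6), Cdk1 (111), Col4a3 (0.336) and Hoxa5 (11.5).

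E13.5 replicate 1 stood out as the highest for Gap43 (222 CPM), Hand1 (25.8), Hhip (6.58) and Egr1 (28.1). E13.5 replicate 4 was the highest for the macrophage genes Adgre1 (18.5 CPM), C1qa (18.3) and Cx3cr1 (25.6), and for Bgn (130), Nr2f2 (282) and Cdc20 (195). E13.5 replicate 2 was the highest for Tpsb2 (1.14 CPM) and the lowest for Stag3 (31.5).

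At E18.5, replicate 2 was the highest library for Ifitm3 (110 CPM), Lin28a (1.97), Zp3 (1.26), Wfdc2 (2.40) and Nkg7 (2.08), and the lowest for Mylk (206), Xist (34.5) and Stag3 (13.3). Replicate 3 was the highest for Akr1c18 (31.2 CPM), Cd74 (13.1) and Cdh16 (1.70) and the lowest for Spata22 (12.4), Igf2bp1 (13.6) and Hspa1a (18.6). Replicate 1 was the highest for Cdkn1b (131 CPM), Ccne2 (105) and Meioc (31.8) and the lowest for Des (9.32), and replicate 4 was the highest for Vcan (24.6) and the lowest for S100b (0.837).

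The change from E13.5 to E18.5 was more negative in wild-type than in p27null ovaries by the interaction test for Cdc20 (-1.57 on the log2 scale), Plk1 (-1.53), Prc1 (-1.48), Ccnb1 (-1.46), Aurkb (-1.45), Top2a (-1.43), Racgap1 (-1.41), Chaf1b (-1.3), Mcm3 (-1.22), Mcm2 (-1.16) and Mcm7 (-1.10).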

How the results depend on the processing

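The number of genes that differed between the ages was 5651 and stayed within 4462 (replicate block) to 7464 (limma-voom with sample weights) under the other fits and scalings, and within 4446 (without E13.5 replicate 1) to 6510 (without E13.5 replicate 3) with 1 library left out. The counts for the pluripotency, synaptonemal complex, recombination, oocyte, matrix, mast cell, S phase and G2/M lists stayed within 1.5 times under every alternative run. The interaction count of 76 was 302 with DESeq2, which called all 76, 60 with the replicate block, 63 with DESeq2's size factors, 68 without the filter, and 32 to 127 with 1 library left out. Same-numbered libraries of the 2 ages did not deviate together (correlations 0.027, -0.002, 0.094 and -0.131), so the replicate numbers are not read as pairs; the block ended the calls of 12 named genes and gave 1, and those ended include Rec8 (adjusted p = 0.0644), Syce1 (0.0538) and Wnt4 (0.0635). Of 4833 alternative values of named genes, 196 lost their call, 57 gained one, and 80 had the other sign, 75 of them with no call under either fit. Further calls ended without the muscle libraries for Lrrn4 (0.0619), without the red cell libraries for Lhx9 (0.0789), Igf2 (0.119), Tcf21 (0.0517), Tle6 (0.066), Wfdc2 (0.0871) and Gap43 (0.052), and in a fit of all 4 wild-type ages for Zglp1 (0.0713) and Tdrd12 (0.0854). Xist, at -0.20, was 1.80 without E13.5 replicate 3 and -0.55 without replicate 2, and was called at 1.56 with limma-voom and at 2.03 and 1.69 without the muscle and the red cell libraries; Meg3 was 2.02 without the former. The cause was not tested. Where counts are few, as for zona pellucida, lymphoid and Y-linked genes, depth leaves differences undetectable.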

Other observations

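The families here were assembled after the values were seen, so their counts are descriptions. Beside them, 16.6% of all genes tested were called higher and 17.5% lower. Of 48 interferon-inducible genes tested, 36 rose from E13.5 to E18.5 in wild-type ovary and none fell, with a median log2 fold change of 1.74 and a summed level of 206 to 297 CPM at E13.5 and 554 to 891 CPM at E18.5. Ifi35 stood at 6.97, 7.96, 8.89 and 7.02 CPM at E13.5 and at 41.0, 44.4, 45.1 and 26.2 CPM at E18.5 (log2 fold change 2.35 ± 0.21, SE; adjusted p = 4.1e-05, edgeR). The guanosine triphosphatase Tgtp1 rose by 3.45, and the peptide transporter genes Tap1 and Tap2, which serve class I antigen presentation, by 1.73 and 2.45. E18.5 replicate 4 was the lowest E18.5 library for the family's sum and had the least globin RNA. The 4 E18.5 libraries were all above the 4 E13.5 libraries for each of these genes. Ages that did not overlap, in either direction, were found for 34.7% of all genes tested.

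The Rhox homeobox cluster and the Xlr family, both X-linked and expressed in germ cells among other places, moved in opposite directions. Rhox9 stood at 96.6, 78.1, 153 and 82.0 CPM at E13.5 and at 1.44, 2.02, 0.874 and 1.15 CPM at E18.5 (log2 fold change -6.23 ± 0.33, SE; adjusted p = 3.19e-06), and Rhox6 and Rhox5 fell by 5.65 and 5.01. Of 16 Rhox genes tested 9 fell, and Rhox13 and Rhox8 rose, by 4.02 and 2.38. Of 9 Xlr genes 6 rose and none fell, Xlr4c by 2.90 and Xlr5b by 3.90. Members of both families are close copies of each other, so that counts may be split between them and single members are uncertain. Over the X chromosome, 24.4% of 628 genes were higher and 16.6% lower, against 16.2% and 17.6% of 15924 autosomal genes.

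Hox genes fell in 14 of 30 cases and none rose (median -1.09), with the smallest p for Hoxa5, at 11.5 to 16.8 CPM and then 0.993 to 2.51 CPM (adjusted p = 7.32e-05). Proteasome subunit genes fell by small amounts, 22 of 38 (median -0.44), with Psmd2 at 655 to 805 CPM and then 313 to 390 CPM. The exceptions included Psmb10, a subunit of the immunoproteasome, which rose by 0.75 (adjusted p = 0.0059). Of 82 cytosolic ribosomal protein genes 27 fell (32.9%) and 1 rose (median -0.43). The share of them called in either direction was near the 34.0% of all genes tested. Of 41 collagen genes 17 rose and 7 fell, with Col4a3 and Col4a4 higher by 3.43 and 3.61. The cartilage collagens Col2a1 and Col9a1 were lower by 3.86 and 4.11.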
